A study of Mus musculus with 12 samples.

Results

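Golim4, Foxf2, S100a6 and Spint2 are 4 genes whose transcripts stood far apart between mouse B cell lymphomas with and without Prps2, an enzyme that makes the precursor of purine and pyrimidine nucleotides. They were selected on their RNA-seq, Ribo-seq and translation efficiency values in these same libraries, as genes near the head of the study's lists, so their differences are given here as a description, with standard errors and no test. They are 4 of the 20561 transcripts in the deposited table, and 2634 transcripts (12.8% of the table) could be paired with a gene name. Every lymphoma carried Eμ-Myc, a Myc transgene that the immunoglobulin heavy chain enhancer drives in the B lineage. The Eμ-Myc/+ group kept Prps2, and the Eμ-Myc/+ Prps2null group had lost it in the germline. The labels describe an allograft without treatment, in which 500000 frozen and thawed lymphoma cells were given by vein to male C57BL/6 mice of 8 weeks, followed by B cell isolation from lymph nodes by negative selection. The methods of the study speak of cells taken from tumor-bearing mice of both genotypes. The labels call the 3 libraries of a genotype in each assay biological replicates. How the 3 lymphomas of a genotype relate to each other is not given in the sources used here, so the spread between replicates may be partly technical. RNA-seq and Ribo-seq, which sequences the mRNA stretches that ribosomes cover (footprints), were each made from 3 lymphomas per genotype, or 12 libraries in all.

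The 4 proteins have unrelated roles. Golim4 (also GPP130) is a membrane protein of the cis-Golgi that cycles between the Golgi and endosomes. Foxf2 is a forkhead transcription factor best known from the mesenchyme of the gut and palate. S100a6 (calcyclin) is a small calcium-binding protein with EF-hand motifs that binds annexins and other partners. Spint2 (HAI-2) is a membrane-anchored Kunitz-type inhibitor of serine proteases, among them the activator of hepatocyte growth factor and the matriptase family.

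In RefSeq on build GRCm38.p6, which corresponds to the mm10 build of the submitters' processing notes, Golim4 lies on the minus strand at chr3:75876183-75956956 and S100a6 on the plus strand at chr3:90612894-90614414. The pair lies 14.7 megabases apart, and S100a6 sits in the S100 cluster with S100a5 and S100a7a as its nearest coding neighbours. Spint2 lies on the minus strand at chr7:29256330-29282059, beside Ppp1r14a. Foxf2 lies on the plus strand at chr13:31625816-31631406, between 2 other forkhead genes, Foxq1 and Foxc1. The measured transcripts were ENSMUST00000117242 (Golim4), ENSMUST00000042054 (Foxf2), ENSMUST00000001051 (S100a6) and ENSMUST00000098604 (Spint2), each the isoform with the longest coding sequence, and the reads lie on their spliced mRNA.

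The promoters were searched for a pair of E-box motifs, because the lymphomas are driven by Myc, which binds CACGTG as a dimer with Max, and because CAGGTG is an E-box of the E-protein, Snail and Zeb families. Each RefSeq promoter window held 250 bases before and 50 after a gene's start, and both strands were searched (CAGGTG also as CACCTG, and CACGTG reads the same on both). The motifs were chosen with the sequences in view, and a match describes the letters only. CACGTG was present once in the windows of Golim4 and S100a6 and in 7.15% of all 32851 windows. CAGGTG was present 3 times in the window of Spint2, in 20.2% of all windows at least once and in 0.365% at least 3 times. The window of Foxf2 held neither. For the 3 genes with a match, 30 bases around the motif are shown 5′ to 3′ on the gene's strand, with the motif in capitals. The Golim4 motif begins 187 bases before the start (chr3:75957119-75957148, minus strand), the S100a6 motif at base 15 after it (chr3:90612896-90612925, plus strand), and the Spint2 motifs shown begin 74 and 9 bases before it (chr7:29282034-29282063 and chr7:29281969-29281998, minus strand), 1 more lying 55 bases before it. The start used for Spint2 lies 82 bases inside the annotated gene.
Golim4: ccatccaggctcCACGTGggcgcacccagg
S100a6: agagtttcgagtCACGTGccagaagggaaa
Spint2, 74 bases before: cgggggcggtgcCAGGTGcaggccgcagag
Spint2, 9 bases before: gccccgccccgcCAGGTGcgccccaccccc
The windows of Golim4, Foxf2 and Spint2 were rich in G and C (71.0%, 71.3% and 69.3%), above 91.8%, 92.2% and 89.5% of all windows, whereas that of S100a6 (49.3%) lay above 36.9% of them. The median window held 52.7%.

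RNA-seq libraries held 4135908 to 6648829 counts and Ribo-seq libraries 975201 to 2793163. Values are given in CPM, counts scaled to a common library total. They are not divided by transcript length, so levels are compared between libraries and never between genes. Prps2 itself matched the labels in RNA-seq, at 56.5 to 60.9 CPM in Eμ-Myc/+ and 8.53 to 10.9 CPM in those of the Prps2null group. Prps2 footprints contradicted the label of 2 Ribo-seq libraries. The library labelled Eμ-Myc/+ replicate 3 held 8.18 CPM of Prps2 footprints, beside 162.5 and 129.1 in replicates 1 and 2. The library labelled Eμ-Myc/+ Prps2null replicate 2 held 139.7 CPM, beside 5.11 and 9.65 in replicates 1 and 3. Each Ribo-seq and translation efficiency (TE) value below is therefore given by label with all libraries and again without these 2 libraries.

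Golim4 RNA was scarce in Eμ-Myc/+ lymphomas and abundant in Eμ-Myc/+ Prps2null lymphomas. Replicates 1, 2 and 3 held 2.78, 3.76 and 4.57 CPM in the former and 94.1, 102.2 and 127.9 CPM in the latter. The groups did not overlap, and the nearest libraries of the 2 groups were 20.6-fold apart. Group means were 3.70 ± 0.90 and 108.0 ± 17.7 CPM (SD, n = 3 each). The low values rest on 13, 25 and 22 reads, so the 95% exact binomial (Clopper-Pearson) intervals of the 3 Eμ-Myc/+ libraries run from 1.48 CPM at the lowest to 6.92 CPM at the highest. These intervals, like all given here, cover counting error only. The edgeR fit across all transcripts put Golim4 at a log2 fold change of 4.58 ± 0.24 (SE), the 13th largest of 7918 positive ones among 14682 transcripts tested.

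Foxf2 RNA followed the same pattern at lower counts. Eμ-Myc/+ replicates 1 to 3 had 1.28, 1.80 and 2.29 CPM (6, 12 and 11 reads), and Prps2null replicates 1 to 3 had 40.6, 62.4 and 52.7 CPM (168, 329 and 255 reads). The groups did not overlap, and their nearest libraries were 17.8-fold apart. Group means were 1.79 ± 0.50 and 51.9 ± 10.9 CPM (SD, n = 3 each), and the log2 fold change was 4.55 ± 0.28 (SE), 14th in its direction and directly after Golim4.

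S100a6 was the least even of the 4. Its RNA stood at 1.50, 1.35 and 2.29 CPM in Eμ-Myc/+ lymphomas (7, 9 and 11 reads) and at 11.1, 59.5 and 39.7 CPM in Eμ-Myc/+ Prps2null lymphomas (46, 314 and 192 reads). The groups did not overlap, but Prps2null replicate 1 stood well below the other two, and its exact interval (8.14 to 14.8 CPM) did not reach either of theirs, the nearer of which began at 34.3 CPM. The coefficient of variation was 66.2% in the Prps2null group, against 16.3% for Golim4 and 21.0% for Foxf2 there. The log2 fold change was 4.14 ± 0.51 (SE), the 19th largest in its direction. Leaving out Prps2null replicate 1 or 2 moved it to 4.54 or 3.61.

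Spint2 went the other way. Eμ-Myc/+ replicates 1, 2 and 3 held 57.3, 57.3 and 74.2 CPM of its RNA, and Eμ-Myc/+ Prps2null replicates held 1.93, 2.47 and 3.10 CPM, on 8, 13 and 15 reads. The lowest Eμ-Myc/+ library was 18.5-fold above the highest Prps2null library. Group means were 62.9 ± 9.8 and 2.50 ± 0.58 CPM (SD, n = 3 each). Its log2 fold change of -4.91 ± 0.26 (SE) was the 4th most negative of 6764, well beyond that of Prps2 itself (-2.92 ± 0.21).

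**Figure D1:**
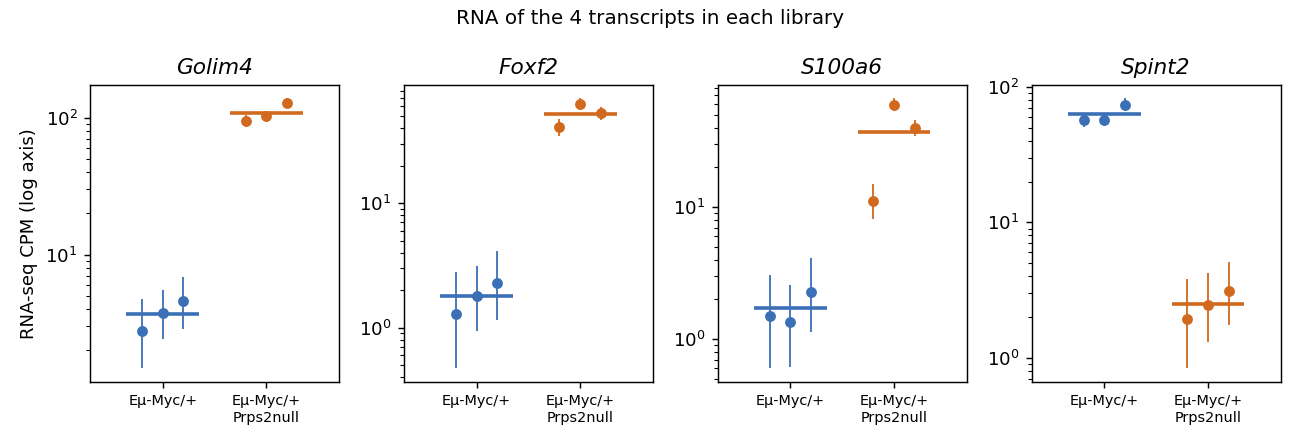
RNA-seq level of each transcript in CPM on a log axis, 1 point per library with its 95% exact binomial interval, and a bar at each group's mean (n = 3). Golim4, Foxf2 and S100a6 are higher in all 3 Eμ-Myc/+ Prps2null libraries and Spint2 is lower in all 3, with S100a6 in Prps2null replicate 1 (11.1 CPM) below the other two.

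These differences were read beside those of the whole transcriptome. In RNA-seq, 2163 transcripts (14.7%) were called higher with Prps2 lost and 2712 (18.5%) were called lower (adjusted p below 0.05 by the quasi-likelihood test of edgeR, Benjamini-Hochberg over all 14682), and ranges that did not overlap were common (51.5%). The median log2 fold change of all transcripts was 0.08 and moved to 0.37 when libraries were scaled to their totals, which changed the calls to 3851 higher and 1668 lower. The 4 genes kept their direction under both scalings.

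By label, the footprints of the 4 genes overlapped between the genotypes. For Golim4, libraries with the Eμ-Myc/+ label held 0, 2.71 and 55.6 CPM of footprints in replicates 1, 2 and 3, and those with the Prps2null label held 47.7, 2.05 and 63.5 CPM. Replicate 1 of Eμ-Myc/+ had no Golim4 footprint, where 3 counts would be 2.94 CPM. Foxf2 gave 1.03, 2.60 and 90.6 CPM under the Eμ-Myc/+ label and 78.5, 4.46 and 92.6 CPM under the Prps2null label. In both genes the high library of the first group and the low library of the second are the ones whose Prps2 footprints go against the label.

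S100a6 footprints stood at 6.85, 16.1 and 121.4 CPM under the Eμ-Myc/+ label and at 154.6, 11.2 and 70.1 CPM under the Prps2null label. Prps2null replicate 1, which had the least S100a6 RNA of its group, thus had the most S100a6 footprints of all 6 libraries. Spint2 footprints stood at 187.1, 217.0 and 11.6 CPM under the first label and at 17.4, 208.8 and 19.7 CPM under the second. The exceptions within each label were the same libraries as for Golim4 and Foxf2.

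Set against Prps2 footprints, all 4 genes fell into 2 ranges with no library between them. With a limit of 50 CPM, 3 libraries lay above (129.1 CPM or more of Prps2) and 3 below (9.65 CPM or less). Depth split in the same way, and the libraries above the limit were the shallower ones. There 3 counts were 2.94 to 3.08 CPM, against 1.07 to 1.69 CPM in those below. The same holds between the genotypes once the 2 libraries that go against their labels are left out. The part of depth in these values was not tested. Because the limit uses a measured value, only ranges are given. Golim4 ranged from 0 to 2.71 CPM in the libraries above the limit and from 47.7 to 63.5 CPM in those below it. Foxf2 ranged from 1.03 to 4.46 CPM above the limit and from 78.5 to 92.6 CPM below it. S100a6 ranged from 6.85 to 16.1 CPM above and from 70.1 to 154.6 CPM below, and Spint2 from 187.1 to 217.0 CPM above and from 11.6 to 19.7 CPM below. Separate ranges of this kind were seen for 55.1% of the 9031 transcripts tested in Ribo-seq, compared with 4.57% when the libraries were grouped by label.

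**Figure D2:**
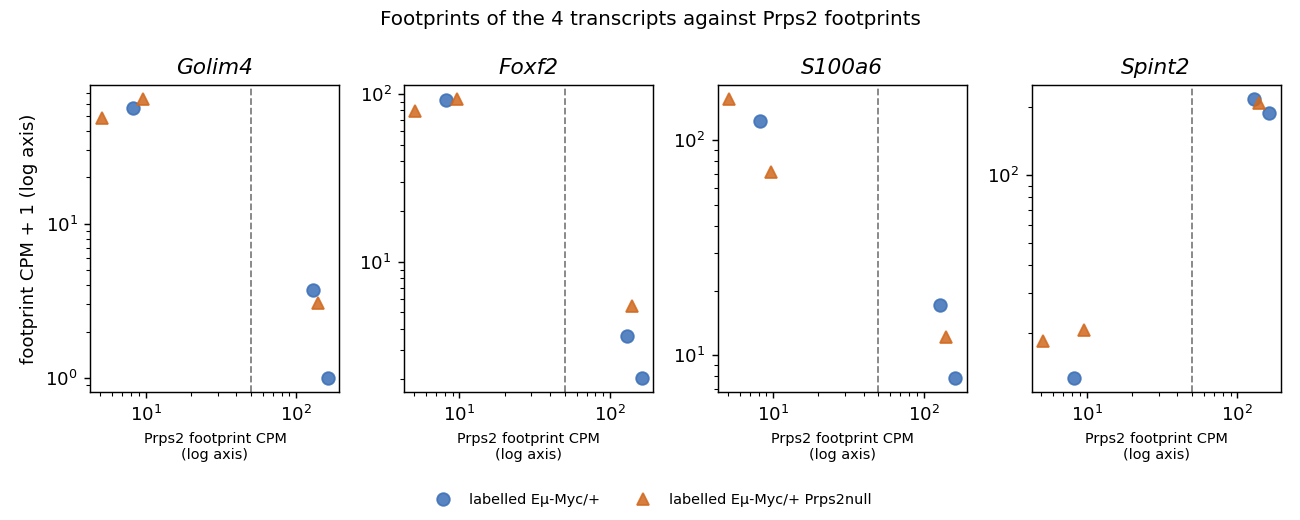
Footprint level of each transcript (CPM + 1, log axis) against Prps2 footprints (CPM, log axis) in the 6 Ribo-seq libraries, with circles for libraries labelled Eμ-Myc/+, triangles for Eμ-Myc/+ Prps2null and a dashed line at 50 CPM. One circle lies among the triangles at low Prps2 (8.18 CPM) and 1 triangle among the circles at high Prps2 (139.7 CPM) in every panel.

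With all 6 Ribo-seq libraries grouped by label, the log2 fold changes were small beside their errors. They were 0.88 ± 1.34 for Golim4, 0.84 ± 1.33 for Foxf2, 0.68 ± 1.08 for S100a6 and -0.80 ± 1.24 for Spint2 (SE). This fit called 0 of 9031 transcripts in either direction (0.0%) at an adjusted p under 0.05, with 47 at an unadjusted p under 0.05, and DESeq2 also called 0. The value for S100a6 turned to -0.21 when Prps2null replicate 1 was left out. Without the 2 libraries, 2 libraries per genotype remained, and the log2 fold changes were 5.13 ± 0.53 for Golim4, 5.36 ± 0.40 for Foxf2, 3.28 ± 0.40 for S100a6 and -3.45 ± 0.20 for Spint2 (SE). That fit called 1629 of 9048 transcripts higher (18.0%) and 1619 lower (17.9%). The 4 genes then stood 78th (Golim4), 71st (Foxf2) and 187th (S100a6) of 4636 positive changes and 74th (Spint2) of 4412 negative ones. Against the floor of 3 counts in Eμ-Myc/+ replicate 1, Golim4 footprints were at least 16.2-fold higher in each of the 2 remaining Prps2null libraries.

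TE is the footprint level relative to the RNA level, and its difference between genotypes was taken as the interaction of assay and genotype. By label over all 12 libraries, the log2 TE changes were -3.78 ± 1.31 for Golim4, -3.75 ± 1.48 for Foxf2, -3.46 ± 1.39 for S100a6 and 4.10 ± 1.46 for Spint2 (SE), each opposite in sign to the RNA difference. This fit called 2.16% of 8987 transcripts higher and 0.0334% lower. Without the 2 Ribo-seq libraries the values were 0.61 ± 0.84 for Golim4, 0.85 ± 0.72 for Foxf2, -0.86 ± 0.92 for S100a6 and 1.45 ± 0.35 for Spint2 (SE), in a fit that called 3.14% higher and 0.478% lower with a median over all transcripts of 0.34. The TE differences of Golim4 and Foxf2 thus changed sign between the 2 fits, while S100a6 stayed negative and Spint2 positive at a smaller size.

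**Figure D3:**
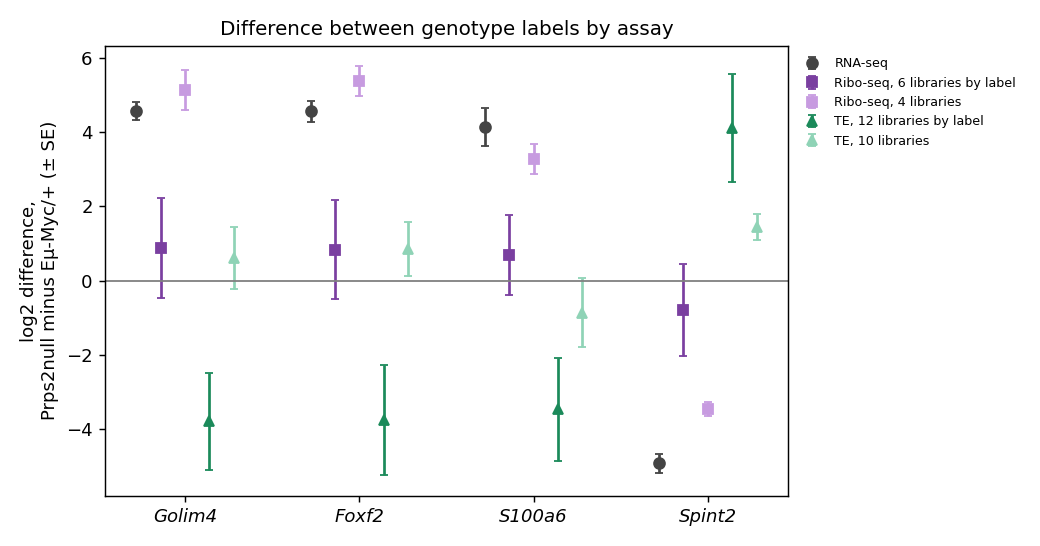
Log2 difference (Prps2null minus Eμ-Myc/+, ± SE) of each transcript in RNA-seq, Ribo-seq and TE, with all libraries by label (dark) and without the 2 Ribo-seq libraries whose Prps2 footprints go against their labels (pale). The pale Ribo-seq points lie on the side of the RNA-seq points and farther from 0 than the dark ones.

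The ratio of footprint CPM to RNA CPM in same-numbered libraries was taken next. For Foxf2 it was 0.803 and 1.44 in replicates 1 and 2 of Eμ-Myc/+, against 1.93 and 1.76 in Prps2null replicates 1 and 3. Those Eμ-Myc/+ ratios rest on 1.05 and 2.65 footprint counts, below the floor of 3, and on 6 and 12 RNA reads. For the pairs with the libraries labelled Eμ-Myc/+ replicate 3 and Prps2null replicate 2 the ratio was 39.6 and 0.0716. Golim4 gave 0 in Eμ-Myc/+ replicate 1, which had no footprint, and 0.722 in replicate 2, on 2.77 footprint counts. It gave 0.507 and 0.497 in Prps2null replicates 1 and 3, with 12.2 and 0.0201 in the 2 discordant pairs. Spint2 gave 3.27 and 3.79 in the former pair of Eμ-Myc/+ libraries and 8.99 and 6.36 in Prps2null replicates 1 and 3, the latter on 8 and 15 RNA reads. S100a6 gave 4.58 and 11.9 in Eμ-Myc/+ replicates 1 and 2 (on 7 and 9 RNA reads). It gave 13.9 and 1.77 in Prps2null replicates 1 and 3, so the ratios of the 2 genotypes overlapped.

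**Figure D4:**
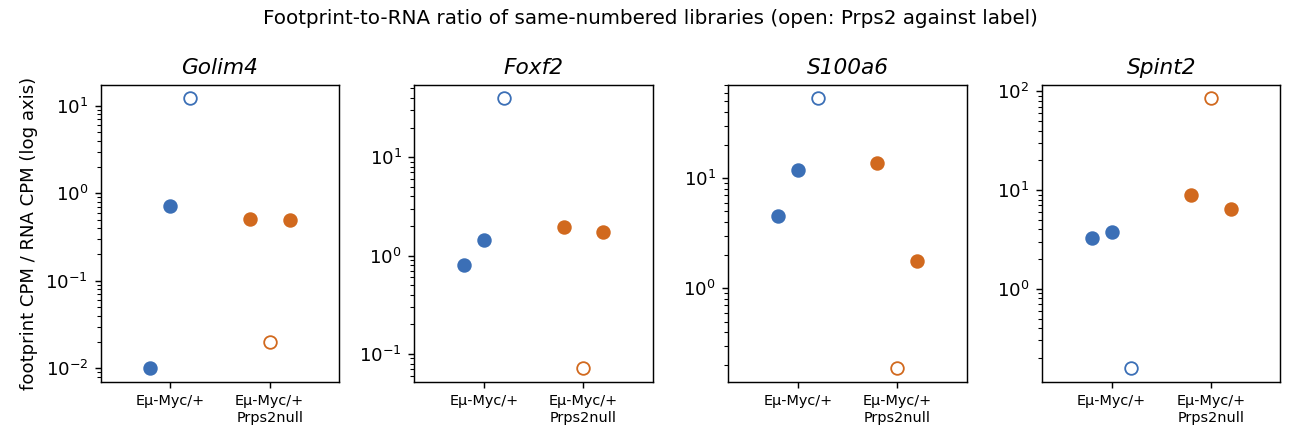
Ratio of footprint CPM to RNA CPM (log axis) for same-numbered libraries, filled where the Prps2 footprints match the label and open where they go against it. Golim4 in Eμ-Myc/+ replicate 1 has a ratio of 0 and is drawn at 0.01. For Foxf2 the open points are at 39.6 and 0.0716, and for S100a6 at 53.1 and 0.188, where the filled Prps2null points are themselves at 13.9 and 1.77.

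The transcripts most like each gene across the 12 libraries were found by the Pearson correlation of log2(CPM + 1), centred within each assay, over 7619 transcripts with a mean of at least 10 CPM in each assay, 2124 of them named. The libraries split by Prps2 level, so high values are common, and 5.22% to 8.10% of the transcripts compared had an r of at least 0.9 with a given gene. Reln, a secreted matrix glycoprotein of neuronal migration, was the most alike named transcript for both Golim4 (r = 0.989) and Foxf2 (r = 0.997), with mean RNA of 55.9 CPM in Eμ-Myc/+ and 403.0 CPM in Eμ-Myc/+ Prps2null lymphomas. Cep85 (r = 0.986) and Arid3a (r = 0.983), a centrosomal protein and a B-lineage DNA-binding protein, came next for Golim4. Mef2c (r = 0.991), a transcription factor of muscle and B cells, and Samd9l (r = 0.990), an interferon-induced gene, came next for Foxf2. For S100a6 the named transcripts with the highest r were Gpsm2 (r = 0.965), Mif4gd (r = 0.964) and Lifr (r = 0.960), the receptor of leukemia inhibitory factor, which ranked only 42nd, 46th and 54th among all 7619 transcripts compared. Capn5 (r = 0.996), a calpain protease, Nmral1 (r = 0.995) and Litaf (r = 0.994) ranked 1st, 2nd and 3rd of all for Spint2. Mean Capn5 RNA was 122.4 CPM in Eμ-Myc/+ and 14.5 CPM in Eμ-Myc/+ Prps2null lymphomas. Among the 4 genes, Golim4 and Foxf2 were the closest pair (r = 0.993), and Spint2 ran opposite to Golim4 (r = -0.964), Foxf2 (r = -0.970) and S100a6 (r = -0.926).

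Changes of the named genes of the same families are given next, and they do not describe the families as a whole. The lists held 74 Golgi and trafficking symbols and 22 forkhead symbols. The S100, annexin and calmodulin list held 27, and that of protease inhibitors and membrane proteases 29. Most symbols of each list had no named transcript. Names were available only from tables that the study had chosen on these samples, most of them by a rise at both levels or in TE. TE is relative to RNA, so naming by a rise in TE favours transcripts with lower RNA. By label, the median log2 TE change was 0.91 for the named Golgi transcripts, against 0.28 for all transcripts tested. The counts below, of rises and of falls, are therefore not independent evidence of a direction. Of 29 named Golgi and endosome-to-Golgi trafficking transcripts tested in RNA-seq, 3 rose and 20 fell (3 and 15 with library totals), with a median log2 fold change of -0.95 against 0.08 for all transcripts, of which 14.7% rose and 18.5% fell. The 3 that rose were Slc30a4, a zinc transporter (3.37 ± 0.31, SE), and Galnt6 (1.60 ± 0.32) and St3gal1 (1.11 ± 0.20), enzymes that add sugars to proteins. Galnt10 (-1.74 ± 0.22), another such enzyme, and Slc30a5 (-1.55 ± 0.19), another zinc transporter, fell most. No named member came near the value of Golim4, but Golim4 was selected for a large difference in these libraries, so that comparison does not describe the family. The only named relative of Foxf2 was Foxp4, and its 2 transcripts fell by 1.44 and 1.36 on the log2 scale.

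Among 4 named transcripts of the S100, annexin and calmodulin list, 1 rose and 3 fell, with a median of -0.97 (0.08 over all transcripts, 14.7% of which rose and 18.5% fell). Anxa9, an annexin, rose (2.34 ± 0.28), while Pdcd6, an EF-hand protein (-1.29 ± 0.27), Calm2, a calmodulin (-1.12 ± 0.25), and Anxa7 (-0.83 ± 0.26) fell. Of 9 named protease inhibitors and membrane proteases, 4 fell and 0 rose, with a median of -0.54 (again 0.08, 18.5% and 14.7% over all transcripts). Those that fell were Furin, a proprotein convertase (-1.81 ± 0.27), Serpinb9, a serpin that inhibits granzyme B (-1.57 ± 0.45), and Cst3 (-1.26 ± 0.23) and Cstb (-1.20 ± 0.42), which inhibit cysteine proteases. None of these is a Kunitz inhibitor, and App and Aplp2, which have Kunitz-domain forms, did not pass the test (-0.40 ± 0.45 and -0.41 ± 0.19). In Ribo-seq by label, 0 members of these lists were called. Without the 2 libraries, where 18.0% of all transcripts were called higher and 17.9% lower, 2 of 27 Golgi transcripts were called higher and 7 lower. Of the 4 S100, annexin and calmodulin transcripts, Anxa9 was called higher and Pdcd6 (-0.95) and Calm2 (-0.88) lower, and 1 of the 2 Foxp4 transcripts was called lower (-0.67). Of 7 protease inhibitors and membrane proteases, App (2.26) and Aplp2 (0.46) were called higher and Furin (-1.48) and Serpinb9 (-3.57) lower (log2 fold changes in footprints).

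**Figure D5:**
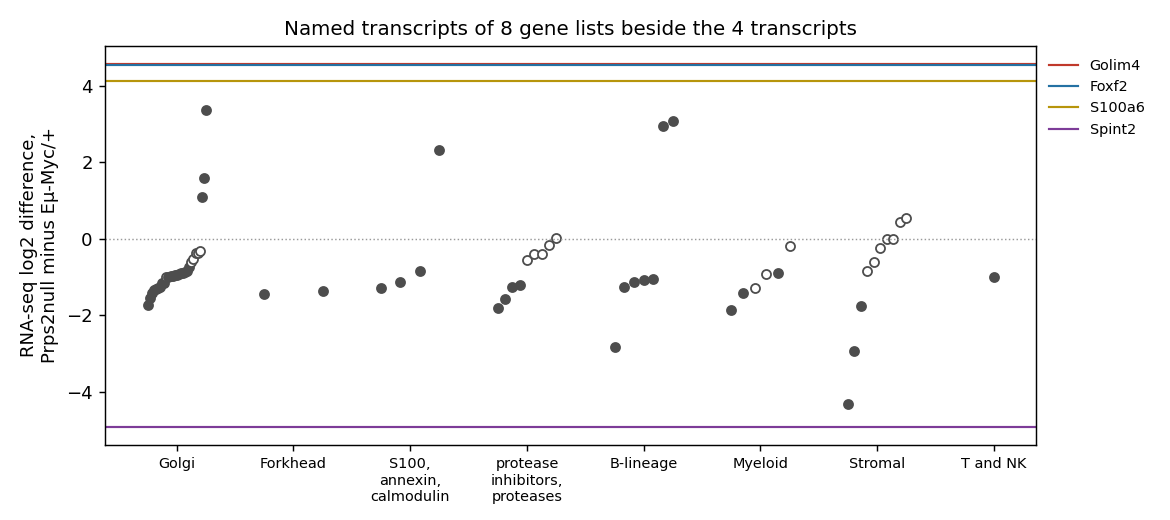
RNA-seq log2 difference (Eμ-Myc/+ Prps2null minus Eμ-Myc/+) of the named transcripts of 8 gene lists, filled where the adjusted p was under 0.05 (edgeR), with horizontal lines for Golim4 and Foxf2 (which overlap), S100a6 and Spint2. The 4 genes were selected for large differences in these libraries. No named transcript of any list lies beyond their lines, and Col3a1 (-4.31) comes nearest to Spint2.

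Markers of cell types moved between the same libraries, again beside 14.7% of all transcripts called higher and 18.5% lower in RNA-seq. Their names came from the same source as those of the families, so these counts are not independent evidence of a direction either. The summed RNA of 7 named B-lineage markers ranged from 2116 to 2986 CPM in Eμ-Myc/+ and from 529.3 to 1060 CPM in Eμ-Myc/+ Prps2null lymphomas. Ms4a1 (CD20) rose (3.09 ± 0.26), as did the adaptor Bank1 (2.95 ± 0.30), and the other 5 fell, among them Cd74, the invariant chain (-2.83 ± 0.32), and Cd79a of the B cell receptor (-1.26 ± 0.26). All 7 were detected in both groups. Among 6 named myeloid markers 3 fell in RNA-seq (Lgmn, C1qc and Lyz2; only Lgmn with library totals), and their sum ranged from 103.9 to 129.6 CPM in Eμ-Myc/+ and from 50.05 to 59.4 CPM in Eμ-Myc/+ Prps2null lymphomas. In footprints without the 2 libraries, 3 of the 6 were called higher and 1 lower, namely C1qc (1.84 ± 0.51), C1qb (1.59 ± 0.48) and Csf1r (1.49 ± 0.48) higher and Lgmn (-0.89 ± 0.13) lower, so C1qc was called in opposite directions in the 2 assays. Among 10 named stromal and matrix markers 3 fell, namely the collagens Col3a1 (-4.31 ± 0.34), Col1a2 (-2.93 ± 0.44) and Col1a1 (-1.75 ± 0.34), and the sum ranged from 74.8 to 149.3 CPM in Eμ-Myc/+ and from 49.6 to 81.5 CPM in Eμ-Myc/+ Prps2null lymphomas, ranges that overlap. The other 7 did not pass the test, at log2 fold changes from -0.84 (Col5a2) to 0.54 (Col14a1). In footprints without the 2 libraries, Col3a1 was called lower (-1.21 ± 0.43) and Sparc higher (1.31 ± 0.39) among the 4 tested. Lck, the only named T and NK marker, fell (-0.99 ± 0.21), and no endothelial marker was named. None of the named markers was at 0 in every library. The part of these markers in the values of the 4 genes was not tested, and in bulk samples fewer cells of a type and less RNA per cell cannot be told apart.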

How the data were processed

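RNA-seq and Ribo-seq of 3 Eμ-Myc/+ and 3 Eμ-Myc/+ Prps2null lymphomas were analysed (12 libraries, groups as labelled). The authors trimmed footprints with cutadapt 2.3, collapsed reads by molecular identifier, removed rRNA and tRNA reads, and aligned reads to the isoform of the longest coding sequence with Bowtie2 2.3.5. Footprints of 23 to 32 nucleotides were kept and corrected for stalling, which can move values of genes with few reads. The RNA-seq values the authors deposited are raw counts per transcript. For Ribo-seq the authors deposited expected counts, codon counts summed after their stalling correction, of which 54.3% were not whole; they were rounded before testing.

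Counts were scaled by median of ratios within each assay, filtered with filterByExpr and fitted with edgeR 4.0.16 (limma 3.58.1, R 4.3.3), with genotype as the only term and, for TE, the interaction of assay and genotype. P-values were adjusted by Benjamini-Hochberg over all transcripts tested (threshold 0.05). Standard errors were derived from the fold change and its F statistic. The fits were tested on simulated data with correct labels and a fixed spread. That test does not cover libraries that go against their labels or changes in transcripts of low level. CPM and exact intervals were computed with NumPy 2.4.6, pandas 2.3.3 and SciPy 1.17.1. A value of 3 counts in the shallowest Ribo-seq library is 3.08 CPM.

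Members, gene lists and motifs were chosen with earlier results of these data known. Named genes were the 4 members and Prps2, the 3 named transcripts most like each member, and up to 4 called transcripts of each list with the largest RNA-seq change (St3gal1, App, Aplp2, C1qb, Csf1r, Sparc, Col5a2 and Col14a1 were named after their values were seen). Gene names came only from the study's supplementary tables, and positions and promoters from RefSeq (GRCm38.p6), where all 4 genes matched. Alternatives were TMM scaling, library totals, 2 other filters, DESeq2 1.42.0 and a replicate block (for TE, genotype label and number together). Others were leaving out each replicate, and leaving out the 2 Ribo-seq libraries whose Prps2 footprints go against their labels.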

Additional observations from a re-analysis of the deposited data

How the results depend on the processing

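RNA-seq directions of the 4 genes held under every alternative that gave a value. Library totals moved Golim4 to 4.85 and Spint2 to -4.63, more than the spread between replicates. Leaving out 1 replicate each gave 4.40 to 4.68 for Golim4, 4.36 to 4.68 for Foxf2, 3.61 to 4.54 for S100a6 and -5.12 to -4.82 for Spint2, and 2724 to 5345 called transcripts (4875 with all; 2724 without Eμ-Myc/+ replicate 1 and 3243 without Eμ-Myc/+ replicate 3).

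In Ribo-seq the same ranges were 0.32 to 4.62, 0.32 to 4.85, -0.21 to 2.80 and -2.88 to -0.27, with 0 transcripts called throughout. The highest Golim4, Foxf2 and S100a6 values came without the library labelled Eμ-Myc/+ replicate 3, the negative S100a6 value without Prps2null replicate 1, and the Spint2 ends of -2.88 and -0.27 without the library labelled Prps2null replicate 2 and without Eμ-Myc/+ replicate 2. Without the 2 libraries whose Prps2 footprints go against their labels, Golim4 was at 5.13, Foxf2 at 5.36, S100a6 at 3.28 and Spint2 at -3.45, with 3248 transcripts called.

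For TE, leaving out 1 replicate each gave -4.14 to 0.029 for Golim4, -4.16 to 0.23 for Foxf2, -4.76 to -1.51 for S100a6 and 2.01 to 4.81 for Spint2. The positive Golim4 and Foxf2 values came without Eμ-Myc/+ replicate 3. Without the 2 libraries the TE changes were 0.61, 0.85, -0.86 and 1.45, in that order. The number of TE calls (197) was 20 with library totals, 119 with no filter, 620 with DESeq2, 326 without the 2 libraries and 0 to 174 without 1 replicate (0 without Eμ-Myc/+ replicate 1 or 2, 5 without Prps2null replicate 2 and 36 without Eμ-Myc/+ replicate 3).

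With the replicate number as a block, RNA-seq and Ribo-seq calls were 3992 and 0. The TE fit took genotype label and number together as the block, which pairs same-numbered RNA-seq and Ribo-seq libraries. Its calls fell to 42. Between the genotypes, deviations of same-numbered libraries from their group means correlated at -0.20, -0.11 and 0.03 in RNA-seq. In Ribo-seq they correlated at -0.62, 0.74 and 0.72, with the libraries whose Prps2 footprints go against their labels included. These values cannot decide whether the numbers pair the lymphomas, and they do not bear on the pairing of the assays. These blocks left the sign of each value of the 4 genes as it was.

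The number of myeloid markers called in RNA-seq (3) was 1 with library totals, 1 with at least 10 counts in every library and 1 to 3 without 1 replicate, where Eμ-Myc/+ replicate 3 and Prps2null replicate 3 gave 1, and the stromal number (3) was 1 under the filter of 10 counts. That filter left Golim4 alone of the 4 genes in RNA-seq, Spint2 alone in Ribo-seq and none in TE. The causes of these shifts were not tested. Depth limits Golim4, Foxf2 and S100a6 in Eμ-Myc/+ and Spint2 in Prps2null libraries, where RNA counts were 6 to 25.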
